A study of Mus musculus with 14 samples.

Results

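A set of 9 genes of retinoid (vitamin A) uptake, binding, metabolism and signalling was followed in isolated mouse adipocytes from 3 fat depots on 2 diets. They are Stra6, Rbp7, Crabp2, Retsat, Rdh10, Aldh1a1, Aldh1a3, Aldh1a7 and Rarb. They were chosen by name, by matching the Ensembl identifiers of the deposited expression tables to mouse symbols, and make up 9 of the 38553 genes listed there. Male mice of the C57BL/6 background ate regular chow (the normal diet, ND) or a high-fat diet (HFD, Research Diets D12492) for 16 weeks, starting when they were weaned at 3 weeks of age. Adipocytes were the floating layer after collagenase digestion of the epididymal pad (visceral white fat), the inguinal pad (subcutaneous white fat) or the interscapular pad (brown fat). Digestion lasted 20 minutes for the white pads and 40 minutes for the brown pad. Each of the 4 white groups had 3 libraries, called biological triplicates in the series design, and brown fat had 1 library per diet. Each library came from the pooled tissue of 3 to 5 mice, so the spread between libraries is a spread between pools. Within a white depot and diet, libraries are named by their replicate number, 0, 1 or 2.

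Retinol circulates bound to a plasma carrier and is taken up by cells, stored as retinyl ester, or oxidised. Retinol dehydrogenases such as Rdh10 turn it into retinal, and retinal dehydrogenases of the Aldh1a family turn retinal into retinoic acid. Retinoic acid is the ligand of the nuclear receptors Rara, Rarb and Rarg, which bind DNA with a retinoid X receptor as partner. Adipose tissue is a storage site of retinoids after the liver, and retinal and retinoic acid both influence adipocyte differentiation.

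Expression was given as FPKM (fragments per kilobase, relative to all mapped fragments of a library), a per-length scale on which genes can be compared. Depth was unknown, since no whole-read steps could be found among the low values. Between 15399 and 18029 genes lay above 0 per library. All 10 adipocyte markers, including Adipoq and Plin1, were detected in every group. Inguinal ND replicates 0 and 2 stood apart, with summed FPKM of 14 lymphocyte markers of 1131 and 1472, against 215 in replicate 1. Their adipocyte marker sums were 17097 and 22706 FPKM, against 42329 in replicate 1. In epididymal ND the adipocyte sum was 22994 in replicate 0, against 38650 and 39078 in replicates 1 and 2. The part of these adipocyte sums in the member values was not tested. Epididymal ND replicate 2 had a summed FPKM of 7 epididymis epithelium markers of 38.3, against 0.062 and 0.044 in replicates 0 and 1. The part of such RNA in the epididymal ND values was not tested. None of the 22 mitochondrial tRNA genes lay above 0 in the 6 epididymal libraries, in inguinal ND replicate 0 and in brown HFD, whereas 10 to 19 did in the other 6 libraries. No label names this split as a batch. It coincides with depot on the high-fat diet, where the split and the depot cannot be told apart. In brown fat it coincides with diet, with 0 of the 22 genes above 0 on HFD and 19 on ND. There the split and the diet cannot be told apart. In bulk samples, fewer cells of a type and less RNA per cell cannot be told apart.

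In epididymal adipocytes, the high-fat diet went with 16.3-fold less Rbp7, an intracellular retinol-binding protein, and 5.65-fold less Aldh1a3, a retinal dehydrogenase, while Aldh1a7, a close relative of Aldh1a1, was 1.95-fold higher. Inguinal adipocytes on the high-fat diet had 3.29-fold more Aldh1a7, 2.00-fold more Aldh1a1 and 4.19-fold less Aldh1a3. Stra6 and Crabp2 had too little signal to be tested. Of the 7 members tested, 3 passed in epididymal fat (1 higher, 2 lower), where 19.5% of all 14959 genes tested passed (12.2% higher, 7.35% lower). In inguinal fat 3 members also passed (2 higher, 1 lower), beside 19.5% of all genes (9.3% higher, 10.2% lower). The diet effect differed between the depots for Rbp7 and Aldh1a1, 2 of 7 members, both with the lower effect in epididymal fat, beside 7.22% of all genes (4.8% higher, 2.42% lower). Of those genes, 718 of 1080 had the higher effect in epididymal fat, and 572 of 1175 after quantile normalization. A call is a limma Benjamini-Hochberg adjusted p under 0.05, taken over all genes tested, and every log2 difference is one of log2(FPKM + 0.5), which makes the changes of weakly expressed genes look smaller. The median log2 difference over the 7 members was −0.45 in epididymal and 0.19 in inguinal fat, beside 0.07 and −0.01 over all genes. An exact permutation test of 3 against 3 libraries cannot go below p = 0.1.

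**Figure D1:**
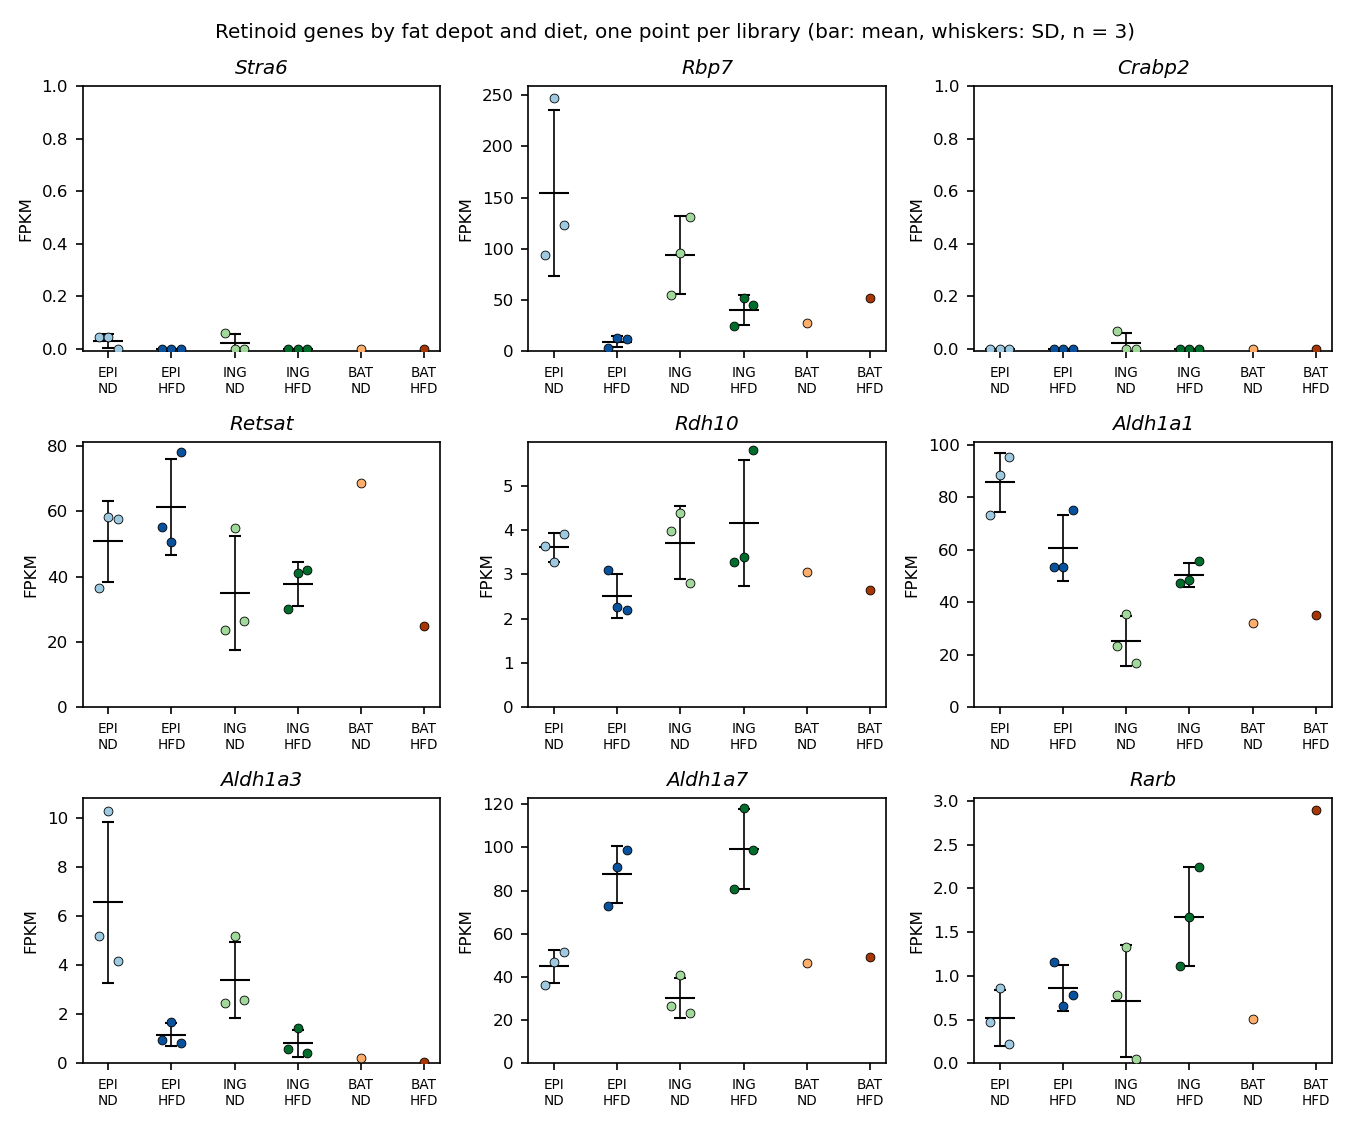
FPKM of the 9 genes in each of the 14 libraries, 1 panel per gene, with points for single libraries and bars for the mean of the 3 white libraries of a group. Rbp7 lay between 3.28 and 12.7 in epididymal HFD libraries and above 93 in the epididymal ND libraries, and Crabp2 and Stra6 were at or near 0 throughout.

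Stra6, the membrane receptor that takes up retinol from its plasma carrier, was listed at 0 in 11 of 14 libraries. It reached 0.044 and 0.045 FPKM in epididymal ND replicates 0 and 1 and 0.061 FPKM in inguinal ND replicate 0. Crabp2, which carries retinoic acid to its receptor, was listed at 0 in 13 libraries and at 0.067 FPKM in inguinal ND replicate 0. Neither gene met the minimum of 0.5 FPKM in 3 white libraries, and an exact 0 in such tables can also be a failed estimate, so no fold is given for either.

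Rbp7 binds retinol inside cells and is known from fat, where the endothelium of the capillaries also expresses it. In epididymal fat it measured 93.8, 247 and 123 FPKM in ND replicates 0, 1 and 2, and 3.28, 12.7 and 12.5 FPKM in HFD replicates 0, 1 and 2. Every HFD library lay below every ND library, by a wide gap. In inguinal fat the values were 54.6, 95.8 and 131 FPKM on ND and 24.4, 51.8 and 44.9 FPKM on HFD. These groups did not overlap either, though the highest HFD library came close to the lowest ND library. In 42.4% of all genes tested the epididymal diet groups did not overlap, and in 33.1% the inguinal ones. Rbp7 fell by 4.04 on the log2 scale in epididymal fat (SE 0.52, limma adjusted p = 0.00025). This call held under all 15 alternative settings, with adjusted p up to 0.0065. The inguinal difference of −1.19 (SE 0.52) did not pass (limma adjusted p = 0.13). The diet effects differed by −2.85 (epididymal minus inguinal, SE 0.74, limma adjusted p = 0.039). That difference kept its sign in every alternative but missed the threshold in 10 of them. Among these were leaving out epididymal HFD replicate 0 or 1, any epididymal ND library, inguinal HFD replicate 1 or 2, or inguinal ND replicate 0 (limma adjusted p from 0.0507 to 0.097).

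Rbp7 differed between the white depots on the high-fat diet and not detectably on the normal diet. On HFD it was 4.25-fold lower in epididymal than in inguinal fat (log2 −2.17, SE 0.52, limma adjusted p = 0.02), the only one of 7 members called there, beside 10.6% of all genes (7.08% higher, 3.53% lower). Epididymal means were 9.49 ± 5.38 FPKM (SD, n = 3) and inguinal means 40.4 ± 14.3 FPKM (SD, n = 3), with no overlap, as for 38.4% of genes. With the replicate number as a block, the limma adjusted p was 0.0015. That blocking term was shared by all white groups, not only by the HFD ones. Deviations of same-numbered libraries from their group means correlated at 0.184, 0.111 and 0.146 between the HFD depots. For replicate 2 between diets in inguinal fat the correlation was 0.007. Whether the numbers pair libraries is not known, so this lower p is given only as an alternative. The call was lost without epididymal HFD replicate 0 (limma adjusted p = 0.079) and without inguinal HFD replicate 1 or 2 (0.0785 and 0.0788). On ND the means were 155 ± 81.2 and 93.8 ± 38.2 FPKM (SD, n = 3 each) in epididymal and inguinal fat, and the log2 difference of 0.68 did not pass (limma adjusted p = 0.45). The order of levels was therefore epididymal ND, inguinal ND, inguinal HFD and epididymal HFD, and no neighbouring pair among the first 3 differed by a called amount.

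Endothelial markers moved in the same contrasts as Rbp7. In epididymal fat 10 of 11 endothelial markers fell on HFD, with a median log2 difference of −2.70 over the 11, and their summed FPKM was 638 to 715 on ND and 65.2 to 119 on HFD. In inguinal fat 2 of 11 fell (median −0.61), and the sums were 449 to 835 on ND and 351 to 448 on HFD. The diet effect on 10 of the 11 differed between depots, and 10 were lower in epididymal than in inguinal fat on HFD. None of the 11 was listed at 0 throughout any group. Expressed as a percentage of the endothelial sum in the same library, Rbp7 was 14.6 to 34.5 in epididymal ND, 5.03 to 11.7 in epididymal HFD, 10.0 to 21.3 in inguinal ND and 6.95 to 11.6 in inguinal HFD. The epididymal diet groups did not overlap on this scale, whereas the inguinal ones did. The part of endothelial RNA in the Rbp7 result was not tested.

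**Figure D2:**
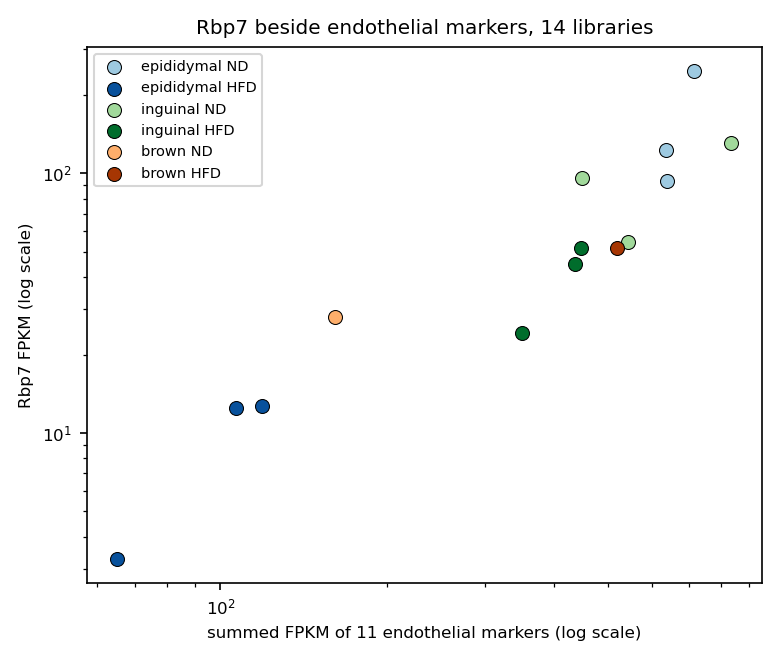
Rbp7 FPKM against the summed FPKM of 11 endothelial markers, both on log axes, 1 point per library and coloured by depot and diet. The 3 epididymal HFD libraries sit apart at endothelial sums of 65.2 to 119 and Rbp7 of 3.28 to 12.7 FPKM.

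Retsat reduces all-trans-retinol to a dihydro form and is a target of the fat cell regulator Pparg. It measured 36.5, 58.3 and 57.5 FPKM in epididymal ND and 55.3, 50.5 and 78.2 FPKM in epididymal HFD replicates 0, 1 and 2. In inguinal fat it was 23.8, 55.0 and 26.3 FPKM on ND and 30.01, 41.1 and 42.0 FPKM on HFD. The diet groups overlapped in both depots, and the log2 differences of 0.28 and 0.19 did not pass (limma adjusted p = 0.61 and 0.71). On HFD every epididymal library lay above every inguinal one, with a log2 difference of 0.68 that did not pass (limma adjusted p = 0.22).

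Rdh10 makes the first oxidation step, from retinol to retinal. It was steady and low, between 2.20 and 5.80 FPKM in all 14 libraries. Epididymal ND libraries held 3.65, 3.27 and 3.92 FPKM and epididymal HFD libraries 3.09, 2.27 and 2.20 FPKM, without overlap. The difference of −0.45 (SE 0.25) nevertheless missed the threshold (limma adjusted p = 0.25). Inguinal means were 3.71 ± 0.825 FPKM on ND and 4.16 ± 1.42 FPKM on HFD (SD, n = 3 each), a log2 difference of 0.12 (limma adjusted p = 0.77). On HFD every epididymal library lay below every inguinal one, a difference of −0.60 that did not pass (limma adjusted p = 0.19).

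On HFD, Aldh1a7 had the highest mean of the 9 members in both white depots, whereas on ND Rbp7 did, followed by Aldh1a1 in epididymal and Retsat in inguinal fat. Aldh1a1 is the main cytosolic retinal dehydrogenase of mouse adipocytes, and Aldh1a7 is its rodent duplicate, whose activity on retinal is reported to be weak or absent. The genes lie beside each other on chromosome 19 (RefSeq, GRCm38.p6), Aldh1a1 at chr19:20492583-20643463 and Aldh1a7 at chr19:20692953-20727556. RefSeq gives 2 windows of 300 bases around a start site for Aldh1a1 and 1 for Aldh1a7. The Aldh1a1 window used was picked because it shared the longest run with that of Aldh1a7. Its start site lies within the Aldh1a1 span given above, not at its edge. The windows compared were 83.8% identical over aligned bases and shared 1 unbroken run of 65 bases. The last 120 bases before each start site are printed because they carry that run, which is in capitals, 5′ to 3′ on the gene's strand (Aldh1a1, plus strand, chr19:20601848-20601967; Aldh1a7, minus strand, chr19:20727557-20727676).
Aldh1a1: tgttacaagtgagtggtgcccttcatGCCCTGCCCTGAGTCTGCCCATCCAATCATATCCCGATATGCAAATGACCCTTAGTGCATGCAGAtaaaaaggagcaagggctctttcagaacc
Aldh1a7: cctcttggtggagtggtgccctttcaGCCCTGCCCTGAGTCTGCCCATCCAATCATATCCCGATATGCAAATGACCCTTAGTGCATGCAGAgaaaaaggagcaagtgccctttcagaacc
The shared run holds the octamer ATGCAAAT at 56 to 49 bases before both start sites. A match to ATGCAAAT on either strand was found in 1.74% of the 32851 RefSeq promoter windows, and to CCAAT, also in the run, in 37.4%. Transcripts of such close copies can share reads, though their transcripts were not compared here. How the authors' counting split any shared reads is not given in the sources used here, so single values of either gene are uncertain.

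The diet effect on Aldh1a1 differed between the white depots, and its rise in inguinal fat passed the test. Epididymal libraries held 73.4, 88.4 and 95.5 FPKM on ND and 53.3, 53.6 and 75.1 FPKM on HFD for replicates 0, 1 and 2. HFD replicate 2 reached into the ND range, and the log2 difference of −0.51 (SE 0.25) did not pass (limma adjusted p = 0.18). Inguinal libraries held 23.5, 35.4 and 16.9 FPKM on ND and 47.5, 48.3 and 55.9 FPKM on HFD, without overlap. Aldh1a1 rose there by 1.05 on the log2 scale (SE 0.25, limma adjusted p = 0.013). The call was lost without inguinal HFD replicate 2 (limma adjusted p = 0.0503), with only the inguinal groups in the fit (0.0734), and without inguinal ND replicates 0 and 2, where the log2 difference was 0.50 (0.277). The diet effects differed by −1.55 (epididymal minus inguinal, SE 0.35, limma adjusted p = 0.022). That call was lost without epididymal HFD replicate 0 or 1, epididymal ND replicate 2, inguinal HFD replicate 2, or inguinal ND replicates 0 and 2 together (limma adjusted p from 0.0564 to 0.0872), with the sign kept. On ND, Aldh1a1 was 3.39-fold higher in epididymal than in inguinal fat, 85.8 ± 11.3 against 25.3 ± 9.39 FPKM (SD, n = 3 each; log2 1.80, SE 0.25, limma adjusted p = 0.0028). It was the only one of 7 members called in that contrast, beside 6.51% of all genes (2.36% higher, 4.15% lower). Of those genes, 353 of 974 were higher in epididymal fat, and 687 of 1308 after quantile normalization. Fitted on those 2 groups alone it did not pass (limma adjusted p = 0.101), a fit in which 14 genes passed in all. On HFD the means were 60.7 ± 12.5 and 50.6 ± 4.59 FPKM (SD, n = 3 each) and the groups overlapped.

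Lymphocyte markers, like Aldh1a1, differed by diet in inguinal fat and by depot on ND, in the opposite direction. Of 14 lymphocyte markers, 13 fell in inguinal fat on HFD and 12 were lower in epididymal than in inguinal ND libraries. In inguinal ND replicate 1, whose lymphocyte sum was the lowest and adipocyte sum the highest of its group, Aldh1a1 was 35.4 FPKM. That was above the other inguinal ND libraries and below the inguinal HFD range. Without inguinal ND replicates 0 and 2, Aldh1a1 kept its ND depot call (log2 1.25), and the inguinal calls of Aldh1a7 (1.26) and Aldh1a3 (−2.19) were kept, whereas that of Aldh1a1 was not. The part of lymphocyte RNA in these results was not tested. Without inguinal ND replicate 0 alone, the only inguinal library with no mitochondrial tRNA gene above 0, all 3 inguinal member calls were kept. That library held 23.5 FPKM of Aldh1a1, below the epididymal ND libraries, which lie on its side of the split. It is a single library, and its lymphocyte sum was also high (1131). The part of the split in these results was not tested.

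Aldh1a7 rose on the high-fat diet in both white depots. It measured 36.5, 46.7 and 51.4 FPKM in epididymal ND and 72.9, 90.8 and 98.7 FPKM in epididymal HFD replicates 0, 1 and 2. Inguinal values were 26.7, 40.8 and 23.2 FPKM on ND and 80.7, 118 and 99.01 FPKM on HFD. Neither pair of diet groups overlapped, and the gap between them was wide in both depots. The rise was 0.96 on the log2 scale in epididymal fat (SE 0.24, limma adjusted p = 0.013) and 1.72 in inguinal fat (SE 0.24, limma adjusted p = 0.00084). The inguinal call held under all 17 alternatives, the sum with Aldh1a1 among them (limma adjusted p up to 0.0251). The epididymal call was lost in that sum and without epididymal HFD replicate 1 or 2 or ND replicate 0 (limma adjusted p from 0.0518 to 0.0581). The difference between the diet effects, −0.77, did not pass (limma adjusted p = 0.20), and neither did either depot contrast.

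The ratio of Aldh1a7 to Aldh1a1 FPKM did not overlap between diets in either white depot. It was 0.497 to 0.538 in epididymal ND and 1.32 to 1.69 in epididymal HFD, so epididymal fat went from more Aldh1a1 to more Aldh1a7. In inguinal fat it was 1.13 to 1.37 on ND and 1.70 to 2.44 on HFD. Brown libraries had 1.44 on ND and 1.41 on HFD. Because any shared reads can be split either way, both genes were also summed, a choice made after the data were seen. The sum was 131 ± 18.9 FPKM in epididymal ND and 148 ± 24.0 in epididymal HFD (SD, n = 3 each), a log2 difference of 0.18 that did not pass (limma adjusted p = 0.67). In inguinal fat it was 55.5 ± 18.6 on ND and 150 ± 19.6 on HFD, a log2 rise of 1.47 (limma adjusted p = 0.0019). The summed diet effects differed between depots by −1.29 (limma adjusted p = 0.039), and the ND depot difference was 1.27 (limma adjusted p = 0.011).

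**Figure D3:**
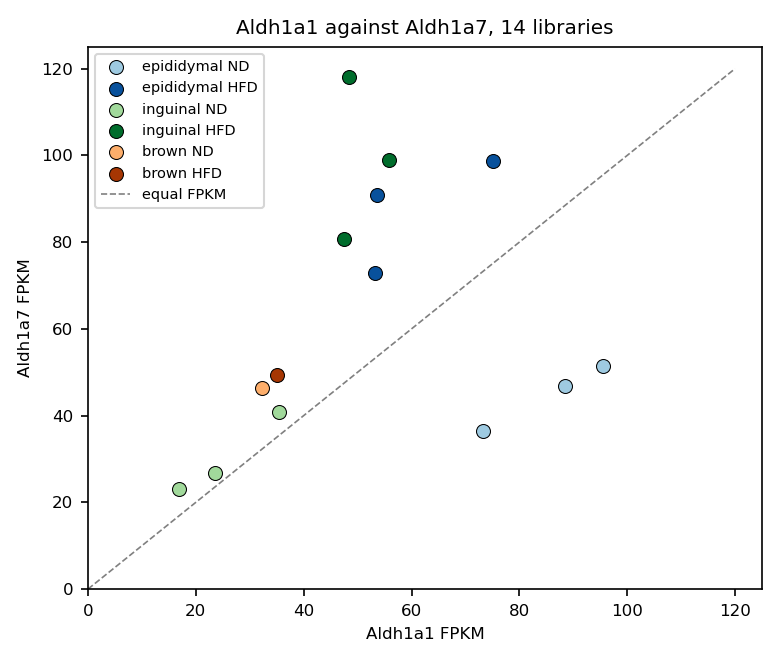
Aldh1a7 FPKM against Aldh1a1 FPKM, 1 point per library, with a dashed line at equal FPKM. The 3 epididymal ND libraries lie under the line, at ratios of 0.497 to 0.538, and the other 11 libraries above it, at 1.13 to 2.44.

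Aldh1a3, a further retinal dehydrogenase with high activity on all-trans-retinal, fell on HFD in both white depots. Epididymal libraries held 5.198, 10.3 and 4.15 FPKM on ND and 0.949, 1.70 and 0.827 FPKM on HFD. Inguinal libraries held 2.44, 5.17 and 2.58 FPKM on ND and 0.563, 1.43 and 0.434 FPKM on HFD. In both depots all HFD libraries lay below all ND libraries, and replicate 1 was the highest of each white group. The fall was by 2.03 on the log2 scale in epididymal fat (SE 0.40, limma adjusted p = 0.0041), a call kept under all 15 alternatives (adjusted p up to 0.0215). It was by 1.58 in inguinal fat (SE 0.40, limma adjusted p = 0.018), a call lost with only the inguinal groups in the fit (0.0736) and without inguinal HFD replicate 0 or 2 (0.0622 and 0.0717). Diet effects did not differ detectably between depots (log2 −0.45, SE 0.57, limma adjusted p = 0.71).

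Fibroblast and preadipocyte markers moved in the same contrasts as Aldh1a3: 5 of 12 fell on HFD in epididymal fat, and 5 fell and 1 rose in inguinal fat. The median log2 difference over the 12 was −0.61 in epididymal and −0.88 in inguinal fat, beside 0.07 and −0.01 over all genes. The summed FPKM of the 12 was 2961 to 4858 in epididymal ND and 2761 to 4006 in epididymal HFD. It was 2467 to 7195 in inguinal ND and 4383 to 4850 in inguinal HFD, with none of the 12 listed at 0 throughout a group. The sums overlapped between diets in both depots, and their part in the Aldh1a3 result was not tested. Of the FPKM of the 4 genes Aldh1a1, Aldh1a2, Aldh1a3 and Aldh1a7 together, Aldh1a3 made up 2.70 to 6.81% in epididymal ND, 4.60 to 6.26% in inguinal ND and at most 1.11% in every HFD library.

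Rarb, the retinoic acid receptor whose own gene is a textbook target of retinoic acid, was weakly expressed. The last 120 bases before a RefSeq start site within the gene are printed because they hold a match to the retinoic acid response element, in capitals, 5′ to 3′ on the minus strand (GRCm38.p6, chr14:16575477-16575596).
Rarb: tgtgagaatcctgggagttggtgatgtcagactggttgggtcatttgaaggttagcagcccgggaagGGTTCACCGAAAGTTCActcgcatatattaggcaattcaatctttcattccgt
The search, on both strands, was for a direct repeat of half-sites with a spacer of 5 bases. A half-site was AGGTCA, the consensus, with AGTTCA also allowed in its place, as was GGGTCA and likewise GGTTCA. The match lay 53 to 37 bases before the start site, and 32 of 32851 RefSeq promoter windows (0.0974%) held such a match. None of the other 5 members with a window (Rbp7, Aldh1a1, Aldh1a7, Retsat, Stra6) had one. Rarb measured 0.475, 0.863 and 0.224 FPKM in epididymal ND and 1.16, 0.657 and 0.777 FPKM in epididymal HFD. In inguinal fat it was 0.780, 1.32 and 0.046 FPKM on ND and 1.12, 1.67 and 2.25 FPKM on HFD. The diet groups overlapped in both depots. The log2 differences were 0.45 in epididymal fat (SE 0.43, limma adjusted p = 0.53) and 0.97 in inguinal fat (SE 0.43, limma adjusted p = 0.13). The inguinal difference passed without ND replicate 1 (limma adjusted p = 0.0305).

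**Figure D4:**
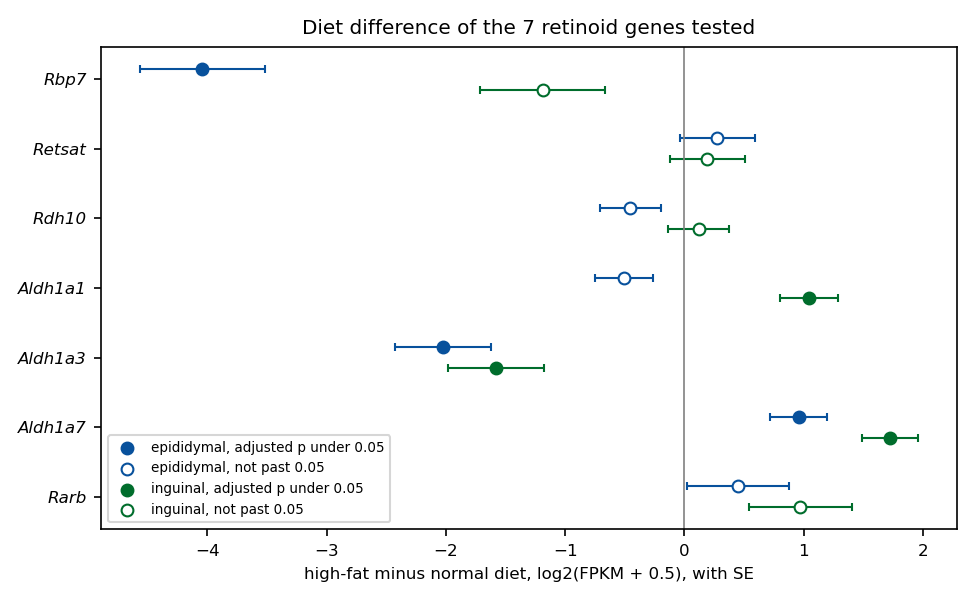
Log2 difference of the 7 members tested, HFD minus ND, on the log2(FPKM + 0.5) scale in epididymal and inguinal fat, with bars for the standard error and filled points for limma adjusted p under 0.05. Rbp7 has the largest difference (−4.04, epididymal), and Aldh1a1 lies at −0.51 in epididymal and 1.05 in inguinal fat.

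Brown adipocytes had 1 library per diet, so these are values of 2 libraries with no test. The brown marker Ucp1 was 121 FPKM on ND and 503 FPKM on HFD there. In white libraries it was 36.1 FPKM in inguinal HFD replicate 2 and at most 3.29 FPKM in the other 11. Aldh1a3 was 0.198 FPKM on ND and 0.061 FPKM on HFD, below every white library. It was the only one of 7 members that differed by log2 1 or more from both white groups of the same diet in both diets; 2.18% of all genes did so downwards and 0.328% upwards. With a pseudocount of 1 or with quantile normalization it no longer did. Between the 2 brown libraries, Rarb was 0.505 FPKM on ND and 2.89 on HFD (log2 1.75), and Retsat was 68.8 and 24.9 (log2 −1.45). These were the 2 of 7 members past log2 1, beside 17.3% of all genes (11.3% higher, 6.01% lower). Rbp7 was 28.0 FPKM on ND and 51.8 on HFD, where the endothelial sum was 161 and 520. Aldh1a1 was 32.2 and 35.1 FPKM, Aldh1a7 46.3 and 49.3 FPKM, and Rdh10 3.06 and 2.65 FPKM on ND and HFD. The marker sums of the 2 brown libraries also differed. The adipocyte sum was 36488 FPKM on ND and 17258 on HFD, lower on HFD as Retsat was, and the fibroblast and preadipocyte sum was 2496 and 2129. Higher on HFD than on ND were the sums of brown adipocyte (1592 against 478), endothelial (given above), mural and smooth muscle (146 against 52.0), macrophage (192 against 15.4), lymphocyte (256 against 19.1) and skeletal muscle markers (129 against 49.7). The Schwann cell sum was 8.83 on ND and 9.51 on HFD, and the mesothelial, mammary and epididymis epithelium sums were at most 2.67 in both libraries. The part of these sums in the brown differences was not tested. Brown fat was digested for 40 minutes and white fat for 20, so between them depot and digestion time cannot be told apart. The 2 brown libraries also lie on opposite sides of the mitochondrial tRNA split, so in brown fat diet and split cannot be told apart.

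For each member with a mean above 2 FPKM, the genes with the most similar profile over the 14 libraries were found among 10631 genes, as the mean absolute difference of centred log2(FPKM + 0.5), where a smaller value is closer. Rbp7 was nearest to Gpihbp1 (0.34), the capillary anchor of lipoprotein lipase, to Kank3 (0.36) and to Cd300lg (0.37). Gpihbp1 fell by 3.45 on the log2 scale in epididymal fat on HFD and measured −0.38 in inguinal fat. Kank3 and Cd300lg fell in both depots, by 3.26 and 3.14 in epididymal fat. In inguinal fat they fell by 1.28 and 0.87. Aldh1a3 was nearest to Osr1 (0.22), a transcription factor gene, then Lrrc17 (0.28) and Plac9a (0.30). All 3 fell on HFD in both white depots, Osr1 by 2.20 in epididymal and by 1.86 in inguinal fat. Aldh1a7 was nearest to Gpt (0.15), an alanine aminotransferase, Nacc2 (0.16) and Cd59a (0.16), which rose on HFD in both depots. Aldh1a1 was nearest to Cyp27a1 (0.16), a mitochondrial sterol hydroxylase. Rbp4, the plasma carrier of retinol, was among the 3 genes nearest to Retsat (0.17). These likenesses are a description over libraries that also differ in their cell markers, with no test. The genes were picked by their profile over these same libraries, so their diet differences follow from the choice and are no separate result.

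Among 61 other genes of the retinoid pathway, 38 were tested. In epididymal fat 6 rose and 5 fell on HFD, beside 19.5% of all genes called (12.2% higher, 7.35% lower). Dhrs9, a retinol dehydrogenase, was 0.223, 0.389 and 0 FPKM on ND and 12.1, 12.9 and 8.15 FPKM on HFD, and rose by 4.05 on the log2 scale (limma adjusted p = 1e-05). Stra6l, a retinol transporter related to Stra6, was at most 0.078 FPKM on ND and 1.503 to 2.68 FPKM on HFD, and rose by 2.20 (limma adjusted p = 0.00045). Only the epididymal HFD libraries met the filter minimum of 0.5 FPKM for Stra6l. It was therefore tested only because of the group where it was high, and its calls are not independent of the filter. Fabp5, which can carry retinoic acid, went from 106 ± 21.4 to 279 ± 24.7 FPKM (SD, n = 3 each; log2 1.41, limma adjusted p = 0.00069). Rarres1, a gene induced by retinoids, fell by 2.03 (limma adjusted p = 0.00039), and Scarb1, a lipoprotein receptor that also takes up carotenoids, by 1.11 (limma adjusted p = 0.00055). Among 10 tested textbook retinoic acid targets, Rarres1 was the 1 called lower, whereas Rarres2 (log2 1.09) and Tgm2 (0.70) were called higher. The calls of Rarres2 and Tgm2 were lost in 6 and 4 of 15 alternatives. Aox3, an aldehyde oxidase, fell by 1.40 (limma adjusted p = 0.048), a call lost when any 1 of the 6 epididymal libraries was left out (0.0508 to 0.167). Dhrs9, Stra6l and Fabp5 were also higher in epididymal than in inguinal fat on HFD, where 4 of 38 were higher and 1 lower without the replicate block and 8 passed with it. Without the block 10.6% of all genes passed there (7.08% higher, 3.53% lower), and with it 1777 of 14959. Macrophage markers moved in the same contrasts: 7 of 14 rose and 1 fell in epididymal fat on HFD, and 10 were higher in epididymal than in inguinal fat on HFD. Their summed FPKM was 485 to 986 in epididymal ND, 1506 to 2624 in epididymal HFD and 284 to 469 in inguinal HFD, and their part in these results was not tested.

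In inguinal fat 2 of these 38 genes rose and 1 fell on HFD, beside 19.5% of all genes called (9.3% higher, 10.2% lower). Lpl, lipoprotein lipase, which also frees retinol from retinyl esters, rose by 1.37 (limma adjusted p = 0.015), and Aox1 rose by 1.14 (0.015). Rxrb, a partner of the retinoic acid receptors, fell by 0.68 (0.042). Each of the 3 calls was lost without inguinal HFD replicate 1 (limma adjusted p from 0.0522 to 0.0663), among other libraries, and none passed without inguinal ND replicates 0 and 2. The diet effects differed between depots for 5 of 38, beside 7.22% of all genes (4.8% higher, 2.42% lower). They were Dhrs9 (3.46), Stra6l (2.14), Rxrb (1.19), Adh1 (−1.68) and Rarres1 (−2.12), with limma adjusted p from 0.0028 to 0.034. The call of Stra6l was lost without epididymal HFD replicate 1 (0.0525), and Stra6l met the filter only through the epididymal HFD libraries. On ND, Aldh1a2, a further retinal dehydrogenase, was higher in epididymal fat, 3.999 ± 1.56 against 0.758 ± 0.368 FPKM (SD, n = 3 each; log2 1.82, limma adjusted p = 0.02). That call was lost without epididymal ND replicate 0 or 1 or inguinal ND replicate 2 (0.0523 to 0.0697). Mesothelial markers, 6 of 7 tested, were higher in the same contrast, with sums of 12.1 to 19.8 FPKM in epididymal ND and 0.486 to 0.613 in inguinal ND, where Msln, Upk3b, Wt1, Krt8 and Krt18 were listed at 0. In inguinal HFD the sums were 0.054 to 0.154. With inguinal sums this low, a mesothelial marker could meet the filter only with the help of epididymal libraries. The count of 6 of 7 is therefore not independent of the filter. The part of mesothelial RNA in the Aldh1a2 difference was not tested. Rarres1 was also higher (1.11), and Rara and Rxrb lower (−0.89 and −0.79), with limma adjusted p from 0.031 to 0.048, and each of these was lost without epididymal ND replicate 0 or 2 (0.0657 to 0.131). In this ND depot contrast 2 of 38 were higher and 2 lower, beside 2.36% of all genes higher and 4.15% lower.

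**Figure D5:**
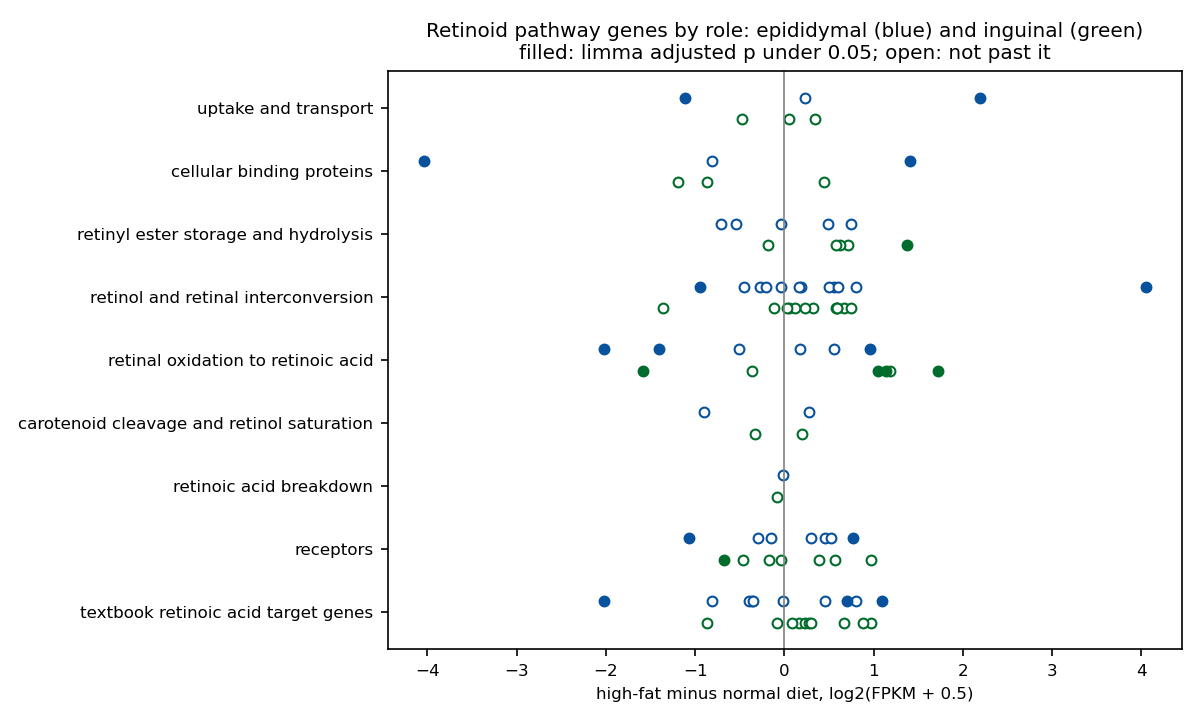
Log2 difference, HFD minus ND, of the retinoid pathway genes tested, grouped by role, for epididymal and inguinal fat, with filled points for limma adjusted p under 0.05. Dhrs9 (4.05) and Stra6l (2.20) lie highest and Rbp7 (−4.04) lowest, all in epididymal fat.

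The balance among the receptors differed by diet in epididymal fat. Rarg fell in epididymal fat from 15.4 ± 2.19 to 7.13 ± 1.53 FPKM (SD, n = 3 each; log2 −1.07, limma adjusted p = 0.013), a call lost without epididymal HFD replicate 0 or ND replicate 1 (0.0674 and 0.0503). Rara rose there from 5.16 ± 0.913 to 9.09 ± 0.373 FPKM (log2 0.77, limma adjusted p = 0.024), a call lost when any epididymal library but ND replicate 1 was left out (0.0632 to 0.0787). Of the summed FPKM of Rara, Rarb and Rarg, Rara made up 22.2 to 25.7% on ND and 50.1 to 57.9% on HFD, and Rarg 70.8 to 76.7% and 34.8 to 45.8%. Rarb made up 1.06 to 3.56% on ND and 3.96 to 7.30% on HFD there, and 6.31 to 8.16% in inguinal HFD. Rxra, a retinoid X receptor, did not pass in either depot (log2 −0.16 and 0.57).

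Other steps of the pathway gave values but no calls by diet. Rbp4 was 289 ± 91.6 and 336 ± 104 FPKM in epididymal ND and HFD and 166 ± 50.6 and 207 ± 47.9 FPKM in inguinal ND and HFD (SD, n = 3 each). Dhrs3, which returns retinal to retinol, was 56.5 to 118 FPKM in epididymal ND and 140 to 149 FPKM in epididymal HFD, without overlap (log2 0.80, limma adjusted p = 0.11). Cyp26b1, which breaks down retinoic acid, ranged from 0.055 to 2.03 FPKM in white libraries, with log2 differences of −0.02 and −0.09. Lrat, which esterifies retinol for storage, stayed at or under 0.204 FPKM in all libraries and was not tested.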

How the data were processed

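The deposited values are FPKM per gene for 14 libraries, made by the authors. Reads were aligned with TopHat2 2.0.9 to mm10 and gene values came from Cuffdiff 2.1.1, according to the submitters' processing notes; library preparation from poly(A) RNA is per the labels' protocols. Annotation, strand setting and the handling of reads shared by close copies are not given in the sources used here, and depth is unknown, so precision rests on the spread between libraries. An Ensembl identifier was matched to a symbol for 36638 of 38553 genes, and all list genes were found.

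Tests used limma 3.58.1 under R 4.3.3, with eBayes set to a mean trend, and took log2(FPKM + 0.5) of the 12 white libraries as input, for 14959 genes with at least 0.5 FPKM in at least 3 of them, with 4 group means sharing 8 residual degrees of freedom and 5 contrasts. Benjamini-Hochberg adjustment ran over all genes tested. Summaries used Python 3.11.15 with pandas 2.3.3, and the code was tested on simulated data. Brown libraries entered no test. All 9 members were named. Other pathway genes were named if among up to 3 calls each way per contrast, plus Rbp4, Aldh1a2, Cyp26b1, Rxra, Rarg, Lrat and Dhrs3. Rara, Rarres2 and Tgm2 were added after their values were seen. A few genes of the fits and lists are counted but not reported here by name. Members and lists were chosen with earlier results of these data known. Promoter windows (250 bases before to 50 after a start site) are RefSeq's on GRCm38.p6. In all, 6 members had 10 windows.

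Alternatives changed the pseudocount (0.1 or 1), the filter (none, or 2 FPKM) or the scaling (own TMM code with 30% and 5% trims, or quantiles). Others weighted the arrays, fitted just the groups compared, added the replicate number as a blocking term, or left out inguinal ND replicates 0 and 2 together or 1 library at a time. Summing Aldh1a1 and Aldh1a7 was added after seeing the data. Where a library is left out, its group's remaining libraries are assumed to vary like the other groups. Replicate numbers are shared between groups, and the labels do not say what they mark. Deviations of same-numbered libraries from their group means correlated between depots on the high-fat diet at 0.184, 0.111 and 0.146, so the numbers may pair those libraries. In the other contrasts at least 1 correlation was under 0.1. The blocking term was nevertheless shared by all white groups, so results with it rest on a pairing that the labels do not give.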

Additional observations from a re-analysis of the deposited data

Results flagged for a closer look

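The diet effect (HFD minus ND, log2(FPKM + 0.5) scale) differed between the white depots by limma's interaction term, epididymal minus inguinal, for 2 of the 7 members tested, Rbp7 by −2.85 and Aldh1a1 by −1.55. It also differed for 5 of the 38 other pathway genes tested, beside 7.22% of all genes. Dhrs9 differed by 3.46, Stra6l by 2.14 and Rxrb by 1.19. Stra6l met the filter only through the epididymal HFD libraries, where it was high. Rarres1 differed by −2.12 and Adh1 by −1.68. Adh1, an alcohol dehydrogenase that oxidises retinol, lay at 90.1 ± 30.5 FPKM in epididymal ND and 45.04 ± 5.24 FPKM in epididymal HFD, and at 45.8 ± 10.7 and 77.5 ± 21.5 FPKM in inguinal ND and HFD (SD, n = 3 each). The Adh1 call was lost in 9 alternatives and that of Rxrb in 11. Rbp7 was 0.87 higher on HFD than on ND in brown fat, whereas in both white depots every HFD library lay below every ND library; this difference was not tested, because brown fat had 1 library per diet.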

How the results depend on the processing

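Values here are counts of genes called by limma (Benjamini-Hochberg adjusted) or log2 differences. The calls of Rbp7 and Aldh1a3 in epididymal fat and of Aldh1a7 in inguinal fat held under every alternative run. For diet in epididymal fat, pathway calls went from 11 to 17 with array weights; with single libraries left out, members ranged from 2 to 3 and pathway genes from 5 to 8. For diet in inguinal fat, members went from 3 to 1 with only the groups compared, and ranged from 1 to 4 with single libraries left out. Pathway calls there went from 3 to 5 (pseudocount 0.1), 1 (no filter), 9 (TMM factors), 6 (quantile normalization), 11 (array weights), and 0 with only the groups compared (9 at an unadjusted p under 0.05) or without inguinal ND replicates 0 and 2 (7 unadjusted), and ranged from 0 to 9. For the interaction, members went from 2 to 1 without a filter and to 0 without inguinal ND replicates 0 and 2 (2 unadjusted), and ranged from 0 to 3; pathway calls went from 5 to 3 without a filter and 11 with array weights, and ranged from 2 to 13. Between depots on ND, members went from 1 to 0 with only the groups compared (1 unadjusted) and 3 with array weights, and ranged from 1 to 3. Pathway calls on ND went from 4 to 2 (no filter), 8 (quantile normalization), 0 with only the groups compared (6 unadjusted), 14 (array weights) and 1 (without inguinal ND replicates 0 and 2), and ranged from 1 to 11. Between depots on HFD, members went from 1 to 2 with array weights and ranged from 0 to 1, and pathway calls went from 5 to 3 (filter of 2 FPKM), 8 (quantile normalization) and 10 (array weights), ranging from 3 to 4. With the replicate number as a block, pathway calls went from 3 to 8 for inguinal diet and from 5 to 8 between HFD depots, and members between ND depots from 1 to 2; Rbp7 passed for inguinal diet (limma adjusted p = 0.0137) and Aldh1a3 between ND depots (0.0435). In brown fat, members past the fold went from 1 to 0 with a pseudocount of 1 and with quantile normalization. Signs turned for small differences. Retsat was −0.015 in epididymal fat with quantile normalization, and −0.55 for inguinal diet and −0.14 between ND depots without inguinal ND replicates 0 and 2. The Retsat interaction was −0.038 (TMM factors), −0.16 (quantile normalization) and −0.40 (array weights). Without inguinal ND replicates 0 and 2, Rdh10 was −0.11 for inguinal diet, the Aldh1a3 interaction 0.16 and the Rarb interaction 0.23. Rdh10 between ND depots was 0.025 (TMM factors) and 0.18 (quantile normalization). With single libraries left out, Retsat ranged from −0.029 to 0.57 for inguinal diet and from −0.29 to 0.30 for the interaction, Rdh10 from −0.12 to 0.25 for inguinal diet and from −0.19 to 0.097 between ND depots, and Rarb from −0.63 to 0.24 between ND depots. Summed with Aldh1a7, Aldh1a1 was 0.18 for epididymal diet and −0.020 between HFD depots. Over all genes, only the groups compared moved calls from 2914 to 713 (inguinal diet), from 974 to 14 (ND depots) and from 1587 to 2993 (HFD depots). Array weights gave 5110, 4612, 2836, 2098 and 3681 calls for epididymal diet, inguinal diet, interaction, ND and HFD depots. No filter gave 695 for the interaction and 577 for ND depots, and leaving out inguinal ND replicates 0 and 2 gave 999 for inguinal diet and 562 for ND depots. Single libraries left out gave 1819 to 2323, 1642 to 4727, 433 to 2627, 264 to 3092 and 783 to 1076 calls, in the same order, against 2918, 2914, 1080, 974 and 1587. The causes were not tested, and with depth unknown no limit from counting error can be given.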
